A study of Homo sapiens with 6 samples.

Results

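The sustained response to ZFP36L1 was read from 2 libraries of the inducible line, tet-ZFP36L1 at 24 h and at 0 h of doxycycline, out of 6 libraries in all. They were chosen by their titles, and the tet-control libraries at the same times serve as the comparison. J82 is an established human bladder cancer line, and it carried either a doxycycline-inducible ZFP36L1 construct or a control construct. Cells were grown to 90% confluence with 1 µg/mL doxycycline for 6 or 24 h or without it (0 h), and total RNA was sequenced on a BGISEQ-500. Each group was 1 culture and 1 library, so no value has a replicate, no test was possible, and every interval is a 95% interval of counting error only. The sources used here do not give whether each line is 1 clone or a pool.

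ZFP36L1 belongs to a small family of zinc-finger proteins that bind AU-rich elements in the 3' UTRs of short-lived mRNAs. The bound mRNA is handed to the CCR4-NOT deadenylase, which shortens the poly(A) tail and starts decay. Many known targets encode cytokines, growth factors, proteases and cell-cycle regulators, and some encode members of the ZFP36 family itself.

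The element at the core of this pathway is shown here in its setting, since the genes below are read against it. Each line is a 30-base window of a 3' UTR (GENCODE 29, GRCh38, gene strand, written as DNA, 5′ to 3′) of a gene at least 2-fold lower at 24 h, with copies of TATTTAT in capitals.
PIM1 (kinase, chr6:37174987-37175016, plus): ttatgTATTTATTTATTTATTTATttggtt
CXCL1 (chemokine, chr4:73870674-73870703, plus): agtcttcTATTTATTTATTTATtcattagt
IL1B (cytokine, chr2:112829994-112830023, minus): gcttcccTATTTATTTATTTATttgtttgt
IER3 (immediate early gene, chr6:30743647-30743676, minus): aattaaTATTTATatgTATTTATgtacgtc
GDF15 (stress cytokine, chr19:18389045-18389074, plus): ctgTATTTATataagtctgtTATTTATtat
HIF1A (hypoxia factor, chr14:61747348-61747377, plus): gcaccttttTATTTATTTATttttggctag
PLAU (urokinase, chr10:73917418-73917447, plus): aTATTTATatttcactattttTATTTATat
CCND1 (cyclin D1, chr11:69652694-69652723, plus): gctaaaaagtaTATTTATtgcagaggatgt
ZFP36L2 (family member, chr2:43223447-43223476, minus): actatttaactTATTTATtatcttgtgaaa
The first window holds 4 overlapping copies, the next pair 3, the following 4 windows 2 copies each and the last ones 1. Of 35 such lower genes searched, known targets or genes named for the size of their change, 26 had at least 1 copy in the 3' UTR of their main transcript and 17 had 2 or more. Known targets are mRNAs named as bound or lowered by proteins that bind AU-rich elements, so copies were likely in them beforehand. Among all protein-coding genes with a 3' UTR searched, 27.8% had at least 1 copy, and among the lower ones 56.7%. A match shows that the letters are there, not that the site is bound.

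Libraries were of like size, with 20739025 to 21380480 estimated counts, and 11909 genes with a mean of at least 50 counts were examined. The induced 24 h library differed from the rest, with 15695 genes at 10 counts or more where the other 5 had 14515 to 14956. No result below can be given without this library. Its TMM factor, a library scaling set by the bulk of genes, was 1.12, against 0.94 to 1.01. Transcripts of the mitochondrial chromosome, of any type, held 2.36% of its counts, against 1.47% at 0 h of the line. They held 1.54% and 1.41% in tet-control at 0 and 24 h. In the 6 h libraries of tet-ZFP36L1 and tet-control they held 2.45% and 2.92%. Epithelial keratins KRT7, KRT8 and KRT18 were present in both lines. KRT8 and KRT18 are uncertain because they share most of their sequence words with other genes. Urothelial UPK2 and UPK3A and basal keratins KRT13 and KRT14 were at 0 counts in the 4 libraries at 0 and 24 h. Of 22 listed urothelial and epithelial markers, 7 were measured and 13 had under 10 counts in each of these 4 libraries. Mesenchymal markers were present, with a summed 11524 CPM (counts per 1000000, TMM-scaled) before doxycycline and 3657 after 24 h, beside 1237 and 1399 in tet-control. FN1 held most of the sum in tet-ZFP36L1 but not in tet-control.

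ZFP36L1 itself (ENSG00000185650, GRCh38 chromosome 14, 68787660 to 68796253, minus strand) checks the labels. Its level was 220.2, 3127 and 3131 CPM through 0, 6 and 24 h, and 233.8, 223.3 and 206.0 CPM in tet-control. The induced level was therefore held from 6 to 24 h. The deposited TPM, which divides by transcript length, gave a 24 h log2 change of 4.91, larger than the 3.83 by CPM. The estimated counts moved to other annotated transcripts: ZFP36L1-202, with a 3' UTR of 1871 bases, held 89.1% of the gene's counts at 0 h and 12.1% at 24 h. ZFP36L1-201, with a 3' UTR of 211 bases, went from 4.6 to 38256.1 estimated counts, while ZFP36L1-202 went from 3996.1 to 8269.8. The paralog ZFP36L2 stood at 62.3, 12.8 and 15.8 CPM over the same times, against 34.3, 44.7 and 36.6 in tet-control. That is a 24 h log2 change of -1.95 (interval -2.12 to -1.78), with 0.09 in tet-control. ZFP36, the founding member, had a change of -0.63, short of 2-fold, beside 0.41 in tet-control.

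**Figure D1:**
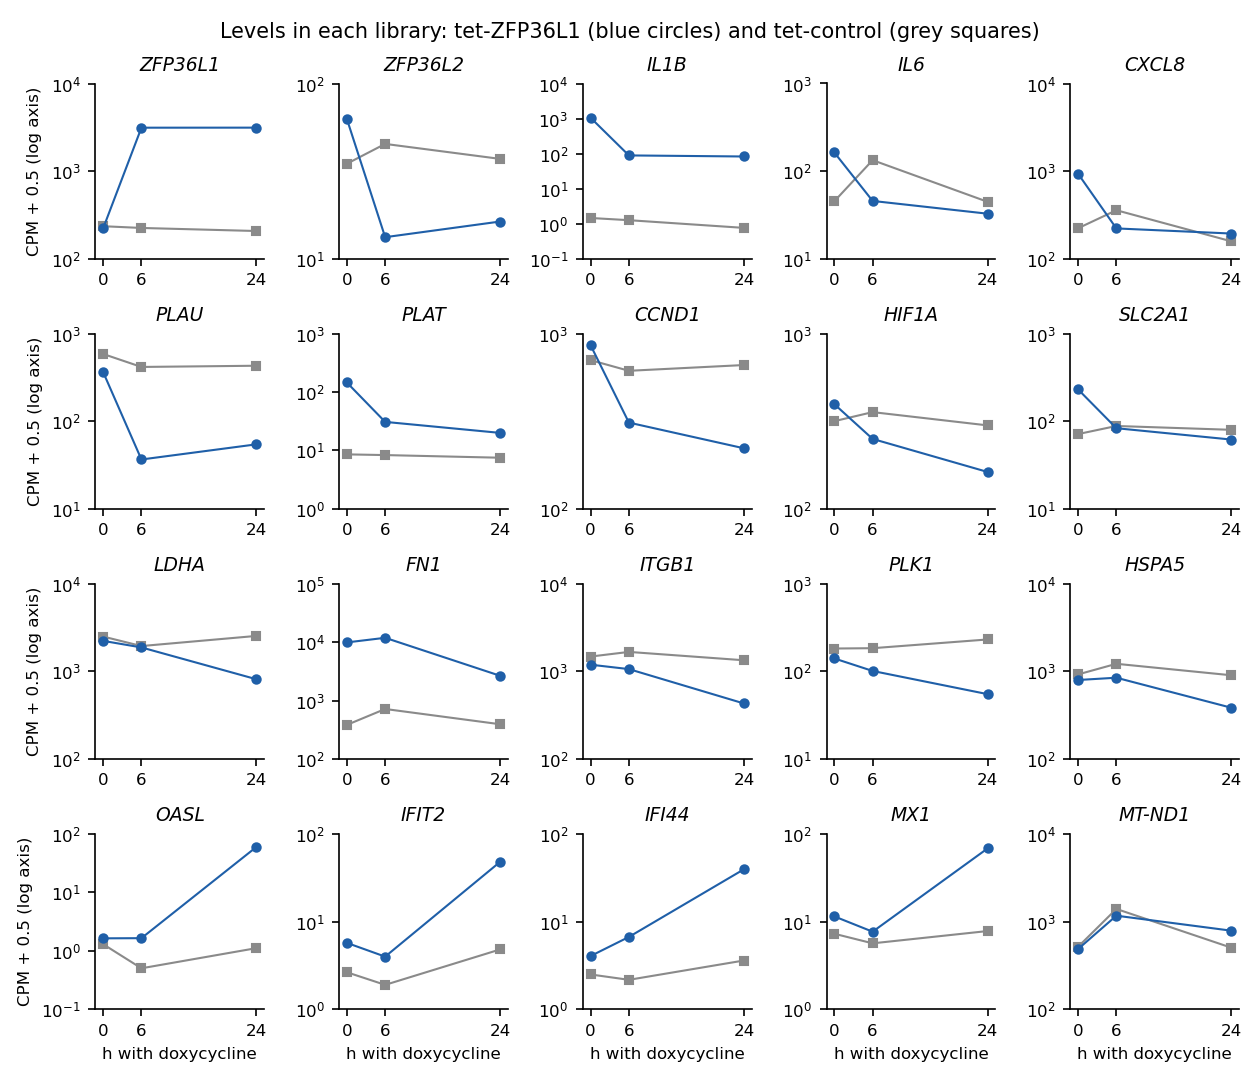
Levels of 20 genes (CPM + 0.5, log axis) at 0, 6 and 24 h of doxycycline, 1 library per point, with tet-ZFP36L1 as blue circles and tet-control as grey squares. ZFP36L1 is at 3127 and 3131 CPM at 6 and 24 h, while OASL, IFIT2 and MX1 are low at 6 h and high at 24 h.

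The 24 h change was broad in tet-ZFP36L1 and narrow in tet-control. A gene is counted when its log2(CPM + 0.5) differs by at least 1, which is 2-fold. In tet-ZFP36L1, 743 genes were lower (6.24% of those examined) and 402 higher (3.38%). In tet-control, 51 were lower (0.428%) and 45 higher (0.378%). The interquartile range of all changes was 0.72 on the log2 scale in tet-ZFP36L1 and 0.23 in tet-control. Of the 743 lower genes, 681 changed by less than 0.5 either way in tet-control, 11 were also 2-fold lower there and 10 were 2-fold higher. The difference between the lines' changes was at least 2-fold in the same direction for 593 lower (4.98%) and 326 higher genes (2.74%).

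**Figure D2:**
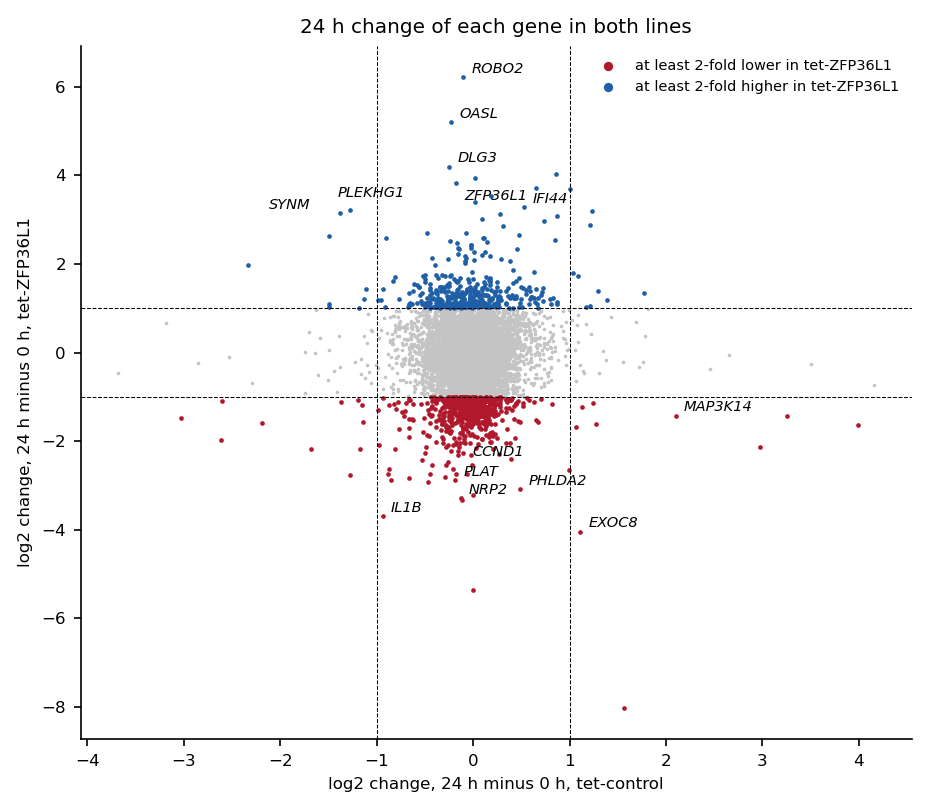
Log2 change from 0 to 24 h of each of 11909 genes in tet-control (x axis) and tet-ZFP36L1 (y axis), 1 point per gene, with dashed lines at 2-fold. The 743 lower (red) and 402 higher (blue) genes mostly lie between the vertical dashed lines.

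The lines were not equal before doxycycline, which bears on where genes ended. At 0 h, 330 genes were at least 2-fold lower (2.77%) and 601 at least 2-fold higher (5.05%) in tet-ZFP36L1 than in tet-control. Of the 743 lower genes, 108 started at least 2-fold above tet-control and 607 within 2-fold of it. Between the lines at 24 h, 991 genes were at least 2-fold lower (8.32%) and 1058 at least 2-fold higher (8.88%) in tet-ZFP36L1. Among them, 442 of the 743 stood at least 2-fold below tet-control, and 259 of the 402 higher genes stood at least 2-fold above it. For genes that started apart, a change toward the level of tet-control and a response to ZFP36L1 cannot be told apart.

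Secreted inflammatory proteins were among the genes with the largest negative changes. Of 31 listed cytokines and chemokines, 16 were measured, and 9 of them (56.2%) were lower and 1 higher. Their median change was -1.24, against -0.09 in tet-control and -0.02 over all genes. The chemokine CXCL8 stood at 932.5, 220.6 and 192.7 CPM through 0, 6 and 24 h, and at 221.5, 356.3 and 156.9 in tet-control. LIF, a cytokine of the IL6 family, stood at 412.2, 153.8 and 100.2 CPM against 195.0, 304.2 and 185.0. Both were highest of the 6 libraries at 0 h of tet-ZFP36L1, and at 24 h CXCL8 was close to tet-control (0.29 above on the log2 scale) while LIF was below it (-0.88). The changes were -2.27 (interval -2.32 to -2.22) for CXCL8 and -2.04 (-2.10 to -1.97) for LIF, with -0.50 and -0.08 in tet-control. IL1B, which encodes interleukin 1 beta, was at 1052 CPM at 0 h and 81.8 at 24 h, and below 1 CPM in every tet-control library. Its change of -3.68 left it 6.77 above tet-control on the log2 scale at 24 h. The alarmin IL33 went from 18.1 to 1.51 CPM and had 0 counts in tet-control at both 0 and 24 h. The measured list started a median of 1.68 above tet-control and ended 0.31 above it. IL6, an inflammatory cytokine, stood at 162.5, 45.1 and 32.1 CPM, against 44.6, 132.6 and 44.0 in tet-control. CXCL1, a neutrophil chemokine, stood at 1174, 300.2 and 321.2 CPM, against 326.1, 349.0 and 364.5. Both were above tet-control at 0 h and slightly below it at 24 h, with changes of -2.32 and -1.87. The colony-stimulating factor genes CSF3 and CSF2 were at -2.41 and -1.16, and CXCL3 at -1.31, beside 0.39, -0.54 and 0.29 in tet-control. IL18, an inflammasome-processed cytokine, was the member past 2-fold upward, with 5.99 CPM before doxycycline and 13.3 after 24 h, beside 14.8 and 13.8 in tet-control.

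NF-kB pathway genes, which control many cytokine genes, lay on both sides. Of 21 measured NF-kB pathway genes, 2 were lower and 3 higher, with a median of 0.16. The higher ones were the adaptor TRAF1, the subunit RELB and the inhibitor NFKBIE, at 2.44, 1.38 and 1.30, beside -0.02, 0.24 and -0.03 in tet-control. TRAF1 went from 12.8 to 71.6 CPM, with 34.6 and 34.1 in tet-control. The coactivator BCL3 was lower at -1.03, and MAP3K14, a kinase of the alternative pathway, at -1.42, beside -0.14 and 2.10 in tet-control. Neither held in every scaling, with -0.89 for BCL3 by plain CPM and -0.54 for MAP3K14 by TPM. The subunit RELA was at 0.03 and NFKB1 at 0.59, both short of 2-fold, beside 0.03 and -0.05. Of 17 immediate early genes, 3 were lower (IER3, KLF6 and KLF2, at -2.21, -1.43 and -1.40) and 2 higher (EGR1 at 1.61 and KLF4 at 1.34). In tet-control these 5 were at -0.23, -0.03, -0.06, 0.44 and 0.02.

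mRNAs named in the literature as bound or lowered by ZFP36-family proteins are a list whose name already states a direction, and it was chosen with earlier results of these data known. Of 44 measured members, 23 (52.3%) were lower and 1 (TRIB1) higher, with a median of -1.14 beside -0.06 in tet-control. Of these members, 11 are also on the cytokine list. PHLDA2, a small protein with a pleckstrin homology domain, was at 30.8, 6.48 and 3.20 CPM over the 3 times, against 10.8, 22.7 and 15.4 in tet-control, so it began above the control line and ended below it. Its change was -3.08 (interval -3.39 to -2.77), with 0.49 in tet-control. CCND1 was at 859.3 and 221.0 CPM at 0 and 24 h, against 705.6 and 661.4 in tet-control. Among members short of 2-fold were MYC at -0.14, TNF at -0.23, NFKBIA at 0.25, TNFAIP3 at 0.50 and BCL6 at 0.60, beside -0.07, -0.27, 0.00, -0.09 and -0.59 in tet-control. All 5 encode short-lived regulators of growth or inflammation.

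Growth factor ligands of the EGF family were past 2-fold lower, and none of their receptors was. EREG (epiregulin) had 32.2 CPM before doxycycline and 4.39 after 24 h, against 7.70 and 6.73 in tet-control. TGFA (transforming growth factor alpha) had 117.6 and 23.97 CPM, against 57.1 and 53.2. Both began above tet-control and ended below it, with changes of -2.74 and -2.27, and HBEGF was at -1.08, beside 0.13 in tet-control. The receptor genes EGFR and ERBB2 were at 0.91 and 0.67, short of 2-fold, beside -0.07 and 0.71 in tet-control. ERBB3 was past it at 1.14, beside -0.19 in tet-control. EGFR was past 2-fold with plain CPM, at 1.06, and ERBB3 short of it by TPM, at 0.95. Feedback inhibitors of the ERK pathway SPRY2, SPRY4 and SPRED1 were at -1.18, -1.06 and -1.04, beside -0.28, 0.21 and -0.19 in tet-control. With plain CPM, HBEGF, SPRY4 and SPRED1 were short of 2-fold, at -0.94, -0.91 and -0.89. In all, 7 of 21 measured members of this list were lower and 1 was higher.

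Genes of pericellular proteolysis and adhesion were lower in large part. Of 14 measured proteases and plasminogen-system genes, 8 (57.1%) were lower and 0 higher, with a median of -1.26 beside -0.10 in tet-control. PLAT, the tissue plasminogen activator, stood at 145.2, 30.3 and 19.4 CPM at 0, 6 and 24 h, against 8.04, 7.81 and 6.99 in tet-control. MMP14, a membrane-bound collagenase, stood at 297.0, 162.5 and 82.1 CPM, against 74.04, 73.1 and 72.6. Both were far above tet-control at 0 h, and MMP14 was 0.18 from it on the log2 scale at 24 h. PLAU started below tet-control, at 364.6 against 585.7 CPM, and ended at 53.9 against 429.7, with a change of -2.75 (interval -2.83 to -2.66). Its receptor gene PLAUR was at -1.93, beside -0.15 in tet-control. Not past 2-fold were the sheddase genes ADAM10 at -0.84 and ADAM17 at -0.11 and the inhibitor TIMP1 at 0.46, beside -0.09, -0.12 and 0.03 in tet-control. ADAM17 was at 0.04 with plain CPM.

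Integrins, the receptors that bind matrix, had 7 of 14 measured members lower and 1 higher, with a median of -1.07 beside -0.21 in tet-control. ITGB1, the shared beta 1 chain (ENSG00000150093, chromosome 10, 32900319 to 33005792), was at 1192, 1061 and 429.5 CPM through 0, 6 and 24 h. In tet-control it was at 1476, 1668 and 1339 CPM. Its alpha 3 partner ITGA3 was at 1407, 1103 and 450.1 CPM, against 902.0, 968.0 and 775.2. For both, the 6 h level was near that at 0 h, and only the 24 h library was low. The changes were -1.47 (interval -1.51 to -1.44) and -1.64 (-1.68 to -1.61), with -0.14 and -0.22 in tet-control. ITGB4, the beta chain of hemidesmosomes, was the member past 2-fold upward at 1.23, from 4.52 to 11.3 CPM, beside -0.36 in tet-control. By deposited TPM it was at 0.55. ITGB3, one of the 7 lower members, is uncertain because it shares most of its sequence words with other genes.

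Matrix genes were divided. Fibronectin (FN1) was at 9909, 11892 and 2656 CPM through 0, 6 and 24 h, and at 382.0, 716.6 and 392.2 in tet-control. It was thus higher in the inducible line at every time, with a change of -1.90 at 24 h beside 0.04 in tet-control. PLOD2 and LOXL2, which modify and cross-link collagen, were at -1.77 and -1.35, VCAN (versican) at -1.09 and THBS1 (thrombospondin 1) at -1.04. In tet-control these 4 were at -0.28, -0.24, -0.21 and 0.36. Collagen genes did not pass 2-fold, with COL1A1 and COL1A2 both at 0.21 and COL4A1 at 0.23, beside -0.45, -0.51 and -0.05 in tet-control. By deposited TPM the direction of COL1A1 and COL1A2 turned, to -0.30 and -0.41. In all, 5 of 28 measured matrix genes were lower and 0 higher, and the median was -0.23. With plain CPM, THBS1 and VCAN were at -0.89 and -0.94, short of 2-fold. Of 31 actin, tubulin and motility genes, 28 were in the highest of 5 equal bins of genes by mean count, whose median was -0.18. Of the 31, 23 lay below 0, with a median of -0.48 beside 0.09 in tet-control. Past 2-fold were 2 lower and 2 higher (6.5% each, beside 6.24% and 3.38% of all genes). The higher ones were TAGLN (transgelin) at 2.98 and MYL9 (a myosin light chain) at 1.36, and the lower ones TUBB3, which is uncertain, and the myosin light chain gene MYL12A at -1.42. Other contractile genes were short of 2-fold, among them TPM1 at -0.43, ACTN1 at -0.04 and MYH9 at 0.04. ACTA2 (smooth muscle actin), on the mesenchymal list, was at 1.76. TAGLN was at 27.8, 385.7 and 222.6 CPM over the 3 times, against 79.2, 389.5 and 132.7 in tet-control. The control line thus had a high 6 h value as well, and its own 24 h change was 0.74.

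Genes of mitosis lay below their 0 h level at 24 h, in part past 2-fold. Of 55 measured mitosis genes, 16 (29.1%) were lower, 1 was higher and 54 lay below 0, with a median of -0.68 beside 0.20 in tet-control and -0.03 at 6 h. The 6 and 24 h changes share the 0 h library. PLK1, the polo-like kinase, stood at 140.0, 100.6 and 54.4 CPM through 0, 6 and 24 h, and at 181.9, 183.5 and 231.0 in tet-control. CDK1, the mitotic kinase, stood at 125.3, 86.4 and 51.0 CPM, against 121.0, 119.9 and 132.4. For both genes the 24 h library was the lowest of the 6. Their changes were -1.35 (interval -1.45 to -1.26) and -1.29 (-1.39 to -1.19), and the ubiquitin enzyme UBE2S was the lowest of the list at -2.29, beside 0.27 in tet-control. The spindle checkpoint gene MAD2L1, the ubiquitin enzyme gene UBE2C, the spindle kinase gene AURKA and the cytokinesis gene ECT2 were at -1.68, -1.62, -1.38 and -1.34. In tet-control they were at -0.02, 0.23, 0.26 and -0.12. Cyclin A2 (CCNA2) was at -1.05, or -0.90 with plain CPM, beside 0.24 in tet-control. The proliferation marker MKI67 was at -0.34, beside 0.48 in tet-control. KNL1, a kinetochore scaffold, was alone past 2-fold upward, at 87.3, 596.1 and 491.3 CPM, against 107.7, 119.1 and 119.1 in tet-control, with a change of 2.49 by CPM and 1.41 by deposited TPM. Of the 55 genes, 41 were in the highest of 5 equal bins of genes by mean count, whose median was -0.18.

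Among 19 measured G1 regulators, 5 were lower and 0 higher, and they include genes that act in opposite directions on the cycle. These were CCND1, which promotes entry into the cycle, and CDKN1A, CDKN2D, CDKN2B and RB1, which restrain it. CDKN1A (p21) had 83.2 CPM before doxycycline and 22.8 after 24 h, against 48.9 and 57.3 in tet-control. The 24 h changes of these 5 were -1.96, -1.84, -1.93, -1.22 and -1.50, and in tet-control -0.09, 0.23, 0.25, -0.25 and 0.02. Of 41 DNA replication genes, 2 were lower (4.9%, beside 6.24% of all genes), namely CDC45 at -1.25 and RRM2 at -1.11, beside 0.03 and 0.35 in tet-control. RRM2 was at -0.96 with plain CPM and -0.85 by TPM, short of 2-fold.

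Genes of the hypoxia response and of glucose use were lower in part, the hypoxia factor mRNAs among them. HIF1A had 395.4 CPM before doxycycline and 161.7 after 24 h, against 315.9 and 298.8 in tet-control, a change of -1.29. EPAS1, which encodes HIF2 alpha, was at -1.49, beside 0.42 in tet-control, and had started 3.49 above tet-control on the log2 scale. Of 27 measured hypoxia targets outside glycolysis, a list that holds both factors, 7 were lower and 1 higher, with a median of -0.86 beside -0.08 in tet-control. The list started a median of 0.33 above tet-control and ended 0.06 above it. VEGFA, which encodes the main angiogenic factor, stood at 50.6, 23.7 and 14.2 CPM over the 3 times, against 27.7, 43.5 and 25.5 in tet-control. It was at -1.80, with the mitophagy receptor gene BNIP3 at -1.21 and the oxidase gene ERO1A at -1.17, the latter -0.71 by TPM. In tet-control these 3 were at -0.12, 0.08 and -0.03. ADM (adrenomedullin) was the one past 2-fold upward, at 1.26 beside 0.06. Of 24 glucose transport and glycolysis genes, 7 (29.2%) were lower and 0 higher, with a median of -0.33. The enzyme gene LDHA was at 2230, 1877 and 812.3 CPM at 0, 6 and 24 h, against 2499, 1946 and 2541 in tet-control, so its 24 h library was the low one. The others were SLC2A1, PFKP, SLC16A3, HK2, ENO2 and PGK1, which range from -1.91 to -1.15, and from -0.10 to 0.16 in tet-control. SLC2A1, the main glucose transporter, stood at 230.6, 82.7 and 61.2 CPM over the 3 times, against 70.8, 87.7 and 79.2 in tet-control. The glycolysis list has 16 of its 24 members in the bin of highest counts.

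Chaperones of the endoplasmic reticulum were lower in part at 24 h. Of 28 measured, 7 were lower and 0 higher, with a median of -0.46, against -0.03 in tet-control and -0.02 at 6 h. HSP90B1 (GRP94) was at 1187, 985.4 and 474.9 CPM through 0, 6 and 24 h and at 1146, 1131 and 1111 in tet-control. HSPA5 (BiP) was at 796.4, 846.0 and 383.6 CPM, against 922.4, 1220 and 902.0. In both genes the 24 h library was below the other 5, at less than the 0 h level by 1.32 and 1.05 on the log2 scale. MANF, PDIA4, EDEM1, HYOU1 and CALR were also past 2-fold, at -1.60, -1.33, -1.31, -1.29 and -1.11. In tet-control they were at -0.07, -0.03, -0.01, 0.40 and -0.06. With plain CPM, HSPA5 and CALR were short of 2-fold, at -0.90 and -0.96. Cytosolic chaperones and proteasome genes had 4 of 36 lower (CCT8, HSPA8, HSPE1 and CCT5; 11.1%, beside 6.24% of all genes) and a median of -0.43, with 34 of the 36 in the bin of highest counts. With plain CPM, HSPA8, HSPE1 and CCT5 were short of 2-fold, at -0.93, -0.89 and -0.87. SLC7A5, an amino acid transporter of the integrated stress response, was at 227.9, 288.3 and 61.98 CPM, against 329.6, 677.3 and 304.7 in tet-control, and 5 of 22 measured genes of that response were lower. These include MTHFD2, PSAT1 and SLC7A11, at -1.42, -1.16 and -1.02, which serve folate, serine and cystine metabolism and were within 0.02 of 0 in tet-control. SLC7A11 was short of 2-fold with plain CPM (-0.88) and by TPM (-0.59).

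Genes often used as references were not level in this comparison. Of 30 housekeeping genes, 3 were lower, where 6.24% of all genes were, and 0 higher, and the median was -0.41 beside 0.05 in tet-control. Of the 30, 21 were in the bin of highest counts, whose median was -0.18. The largest change was that of TFRC, the transferrin receptor, which had 323.8 CPM before doxycycline and 138.6 after 24 h, against 453.4 and 429.0 in tet-control. ACTB (beta actin) was at -0.53 and B2M at -0.10, beside 0.05 and 0.02 in tet-control, and B2M was at 0.05 with plain CPM. Cytosolic ribosomal protein genes lay on the other side: 0 of 78 were past 2-fold and the median was 0.18, beside 0.09 in tet-control. Their 24 h changes spanned -0.38 to 0.53. Translation factors and tRNA synthetases had 0 of 31 past 2-fold and a median of -0.18. The mRNA decay machinery, through which ZFP36L1 acts, had 1 of 39 higher (DCP1B, 1.24, beside 0.42 in tet-control) and 0 lower.

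**Figure D3:**
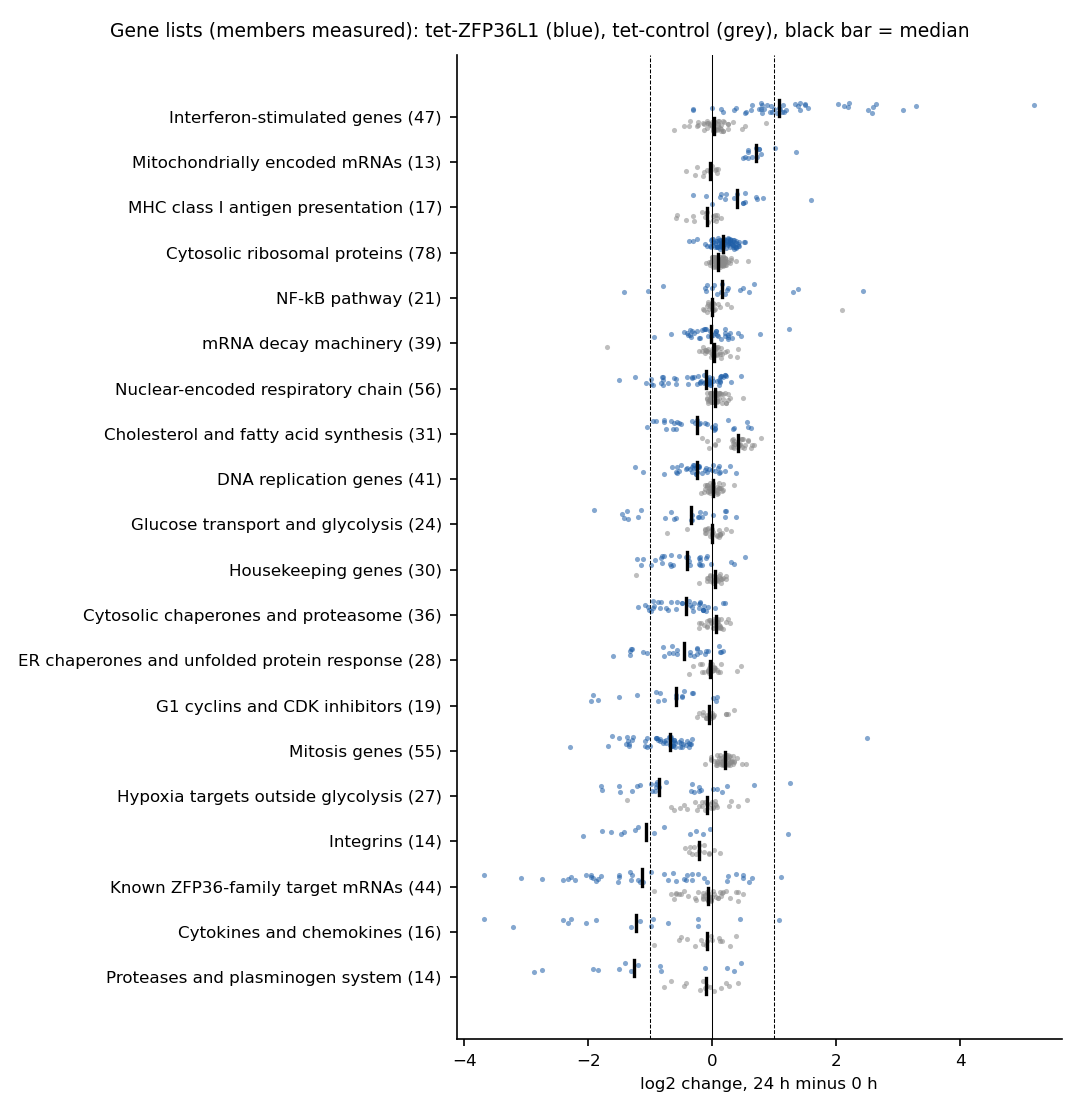
Log2 change from 0 to 24 h of each measured member of 20 gene lists, in tet-ZFP36L1 (blue) and tet-control (grey), 1 point per gene, with black bars at the medians and dashed lines at 2-fold. In tet-ZFP36L1 the medians run from -1.26 for proteases to 1.08 for interferon-stimulated genes.

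Many interferon-stimulated genes were higher at 24 h. These genes encode antiviral effectors and are switched on by interferons, through a complex that holds STAT2 and IRF9, or by viral RNA sensors. Of 57 listed, 47 were measured, and 25 of these (53.2%) were higher and 0 lower. The median was 1.08, beside 0.03 in tet-control and -0.10 at 6 h. OASL, an oligoadenylate synthetase-like protein (ENSG00000135114, chromosome 12, 121019111 to 121039242), was at 1.13, 1.14 and 59.6 CPM at 0, 6 and 24 h, and below 1 CPM in every tet-control library. MX1, a GTPase that blocks viral replication, was at 10.95, 7.15 and 68.0 CPM, against 6.75, 5.14 and 7.29. IFIT1, which binds viral RNA ends, was at 10.9, 6.17 and 68.2 CPM, against 7.70, 1.55 and 8.35. In these 3 genes the 24 h library of tet-ZFP36L1 was far above the other 5. The changes were 5.20 (interval 4.79 to 5.62), 2.58 (2.38 to 2.78) and 2.59 (2.40 to 2.79). By deposited TPM they were 5.18, 2.11 and 2.67.

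Among the interferon genes, the effectors IFI44, IFIT2, IFIT3, MX2, OAS2, OAS1 and ISG15 were between 3.29 and 2.03, and between -0.24 and 0.87 in tet-control. GBP1, a guanylate-binding protein, was already high at 6 h, with 11.98, 52.98 and 56.4 CPM over the 3 times, against 9.73, 15.6 and 11.1 in tet-control. IFI16, a DNA sensor, was at 9.72, 10.6 and 29.4 CPM, and under 1 CPM in tet-control throughout. The sensor IFIH1 was at 1.16 and the factors IRF7 and IRF9 at 1.49 and 1.38, beside 0.08, 0.25 and 0.34 in tet-control. IRF9 shares 71.0% of its 31-base words with other genes and is uncertain. Short of 2-fold was the signal transducer STAT2 at 0.81, beside 0.05. The lowest values were those of USP18, a brake on interferon signalling, and of the kinase EIF2AK2, both at -0.31, beside -0.08 and 0.00. The list's median distance above tet-control was 0.33 before doxycycline and 1.49 after 24 h.

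Antigen presentation genes, many of which also answer to interferon, had 1 of 17 measured members past 2-fold, namely their activator NLRC5. NLRC5 was at 3.98, 7.15 and 12.9 CPM over the 3 times, against 1.89, 1.66 and 1.62 in tet-control. The heavy chain gene HLA-B was at 0.72, beside -0.29 in tet-control, and the list median was 0.40. Leukocytes also express many of these genes. Of 10 leukocyte markers, 7 had under 10 counts in each of the 4 libraries at 0 and 24 h, and PTPRC, MS4A1 and TYROBP were among those at 0. The summed level of the list was 11.7 CPM before doxycycline and 30.1 after 24 h, beside 2.28 and 5.92 in tet-control, mostly CD68, which shares 93.7% of its 31-base words with other genes. Their part in the interferon result was not tested.

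Promoters of these genes are printed because interferon factors bind a known element there, GAAANNGAAA, searched on both strands from 250 bases before to 50 after each start (RefSeq, GRCh38.p14). Each line is a 30-base stretch, 5′ to 3′ on the gene strand, with the element, or its reverse complement TTTCNNTTTC, in capitals.
IFI44 (chr1:78649761-78649790, plus): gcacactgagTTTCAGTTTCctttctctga
IFIT3 (chr10:89327865-89327894, plus): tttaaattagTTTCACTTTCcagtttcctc
IFIT1 (chr10:89392504-89392533, plus): tagTTTCACTTTCcccTTTCGGTTTCccta
ISG15 (chr1:1013377-1013406, plus): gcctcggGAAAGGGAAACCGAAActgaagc
Of the 47 measured interferon-stimulated genes, 39 matched the promoter table by symbol, and 23 of them (59.0%) held the element. It was in 3.6% of all 27305 promoters in the RefSeq set. The 23 genes with the element had a median 24 h change of 1.08, and the 16 without it had 0.90. Among all 236 protein-coding genes examined whose promoter held the element, the median change was 0.05, beside -0.03 for all 8898 with a promoter in that set. The element was in 22 of 271 promoters of higher genes (8.1%) and 5 of 557 promoters of lower genes (0.9%). Among all 8898 it was in 2.7%. The 22 include IFI44, IFIT3, IFIT1, MX1, GBP1, ISG15, IFI6, IFIH1, SAMD9, HERC5, ISG20 and PARP14, all on the interferon list. This share is therefore not separate from that of the list, and higher genes outside the list were not counted apart.

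Mitochondrially encoded mRNAs were all above their 0 h level in tet-ZFP36L1, with changes from 0.50 to 1.35 and a median of 0.70 beside -0.04 in tet-control. Past 2-fold were 2 of 13, MT-ND6 and MT-ATP8, at 1.02 and 1.35 beside -0.28 and -0.43 in tet-control. MT-ND1, a subunit of complex I, was at 484.1, 1166 and 785.6 CPM through 0, 6 and 24 h, and at 513.6, 1392 and 502.0 in tet-control. Both lines were high at 6 h, and only tet-ZFP36L1 was still high at 24 h. Subunits of the same complexes encoded in the nucleus had 3 of 56 lower (5.4%, beside 6.24% of all genes) and 0 higher. The 3 were COX7A2, NDUFS1 and COX8A, the last at -0.92 with plain CPM. The median of the 56 was -0.10, which was 0.05 with plain CPM. Cholesterol synthesis genes had a median of -0.24 beside 0.41 in tet-control, and ACLY, which makes cytosolic acetyl-CoA, was past 2-fold at -1.05, or -0.90 with plain CPM, beside 0.35 in tet-control.

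Several other groups had at most 3 members past 2-fold, where 6.24% of all genes were lower and 3.38% higher. Apoptosis and survival genes had 0 of 25, with values from -0.84 to 0.82, and serine/arginine-rich splicing factors 0 of 24. Among 19 p53 targets, 3 were lower (15.8%, above the share of all genes). They were the stress cytokine GDF15 at -2.83, CDKN1A at -1.84 and MDM2, the ubiquitin ligase for p53, at -1.09. GDF15 was at 18.4, 0.88 and 2.15 CPM over the 3 times, against 39.7, 8.72 and 24.9 in tet-control, so both lines were lowest at 6 h. MDM2 was at -0.95 with plain CPM and -0.50 by TPM, and at 0.07 in tet-control. Other AU-rich element binding proteins had 1 of 16 lower (6.2%, near the share of all genes) and 0 higher. The lower one was RC3H2, roquin 2, at -1.07 beside 0.02 in tet-control, or -0.92 with plain CPM. Ribosome biogenesis genes had 1 of 35 lower, the helicase gene DDX21 at -1.29 beside 0.06 in tet-control, and a median of -0.07 that was 0.08 with plain CPM.

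Among the largest increases were also genes outside the lists. ROBO2, an axon guidance receptor, was at 5.06, 484.4 and 414.5 CPM at 0, 6 and 24 h, and below 1 CPM in tet-control. LCP1 (L-plastin, an actin bundler of blood cells and tumours) was at 2.41, 120.5 and 44.0 CPM, against 0.60, 5.57 and 0.61. CD163L1, a scavenger receptor, was at 2.55, 16.3 and 39.7 CPM, and below 1 CPM in tet-control. FGF1, a fibroblast growth factor, was at 5.50, 69.4 and 77.4 CPM, against 1.19, 12.4 and 2.89. These genes were already above their 0 h level at 6 h, unlike OASL. DLG3, a synaptic scaffold, was at 13.5, 351.0 and 255.2 CPM, against 47.2, 19.6 and 39.7 in tet-control. DPYD, which degrades pyrimidines, was at 30.2, 112.9 and 156.7 CPM, against 23.4, 25.6 and 23.1. GLE1 (mRNA export), KDM4A and KDM3B (histone demethylases) and MAST2 (a kinase) stood between 44.6 and 102.3 CPM before doxycycline and between 519.6 and 918.9 CPM after 24 h. Their tet-control changes were 0.19, 0.02, -0.16 and -0.07 for GLE1, KDM4A, KDM3B and MAST2. Single transcripts carried much of this: KDM4A-201 went from 1493.4 to 20043.2 estimated counts, and CD163L1-202 from 25.9 to 805.7. On the deposited TPM scale the CD163L1 change was 1.64, against 3.72 by CPM.

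Among the largest decreases, some were complete only at 24 h. ADAM19, a membrane metalloprotease, was at 56.4 and 59.4 CPM at 0 and 6 h and at 5.17 at 24 h, against 17.98, 6.10 and 16.6 in tet-control. NRP2, a receptor for semaphorins and VEGF, was at 45.6, 13.6 and 4.25 CPM, against 45.5, 31.3 and 41.7. Its long transcript NRP2-204, with a 3' UTR of 3075 bases, went from 608.4 to 4.1 estimated counts, while NRP2-202, with 630 bases, went from 141.0 to 60.4. G0S2, a lipase inhibitor, and HPCAL1, a calcium sensor, were at their 24 h level by 6 h, with 18.04 and 18.9 CPM for G0S2 and 24.6 and 24.9 for HPCAL1. Before doxycycline they stood at 147.3 and 177.0 CPM. Their changes were -2.93 and -2.80, with -0.47 and -0.29 in tet-control. Both started above tet-control, with 2999.0 against 221.0 estimated counts for transcript G0S2-201 and 3022.0 against 1333.8 for HPCAL1-201. At 24 h G0S2-201 was still above it, at 413.0 against 154.0, and HPCAL1-201 below it, at 406.6 against 1057.4. DNER, a Notch ligand, was at 235.3, 117.2 and 40.0 CPM over the 3 times, and at 7.75, 7.92 and 7.70 in tet-control. PMEPA1, a brake on TGF beta signalling, was at 213.7, 74.03 and 34.1 CPM, against 76.9, 100.6 and 66.6. NCEH1, a cholesterol ester hydrolase, was at 27.0, 28.1 and 3.61 CPM, against 42.95, 32.1 and 23.04. DNER and PMEPA1 were thus intermediate at 6 h, and NCEH1 was low at 24 h alone.

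The direction of the response depended on the scaling. With TMM, 64.9% of the genes past 2-fold were lower, with plain CPM 45.3%, with DESeq2 size factors 65.7%, and with the deposited TPM 53.4%. Plain CPM gave 491 lower (4.12%) and 593 higher genes (4.98%). DESeq2 size factors gave 757 (6.36%) and 396 (3.33%), and TPM gave 560 (4.7%) and 489 (4.11%). The median over all genes was -0.02, 0.13, -0.03 and 0.07 in that order, and -0.00 in tet-control with TMM. Every change above therefore stands relative to its scaling, and plain CPM moves the median of all genes from -0.02 to 0.13. Past 2-fold with TMM, plain CPM and TPM alike were 431 lower and 331 higher genes. The measurement is relative: a change in total mRNA per cell would not show in it.

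The response also went with expression level, read in 5 equal bins of genes by mean count over the 6 libraries. In the lowest bin (mean up to 204.8) the median change was 0.21, and in the highest (2010.5 and above) it was -0.18. In between it was 0.09, -0.04 and -0.07. In tet-control the medians ran the other way, from -0.05 to 0.02. In the lowest bin 9.53% of genes were higher and 5.41% lower, and in the highest 0.71% were higher and 7.85% lower. The order of the bins was the same with plain CPM, from 0.35 to -0.03, and with TPM, from 0.26 to -0.09. The 402 higher genes had a median of 174.8 counts and the 743 lower ones 852.7. Long intergenic RNAs, which are mostly low, had a median of 0.29 over 165 genes, with 10 higher and 3 lower, and antisense genes 0.19 over 223. The sources used here do not give the strand setting, so antisense genes cannot be told from their partners.

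**Figure D4:**
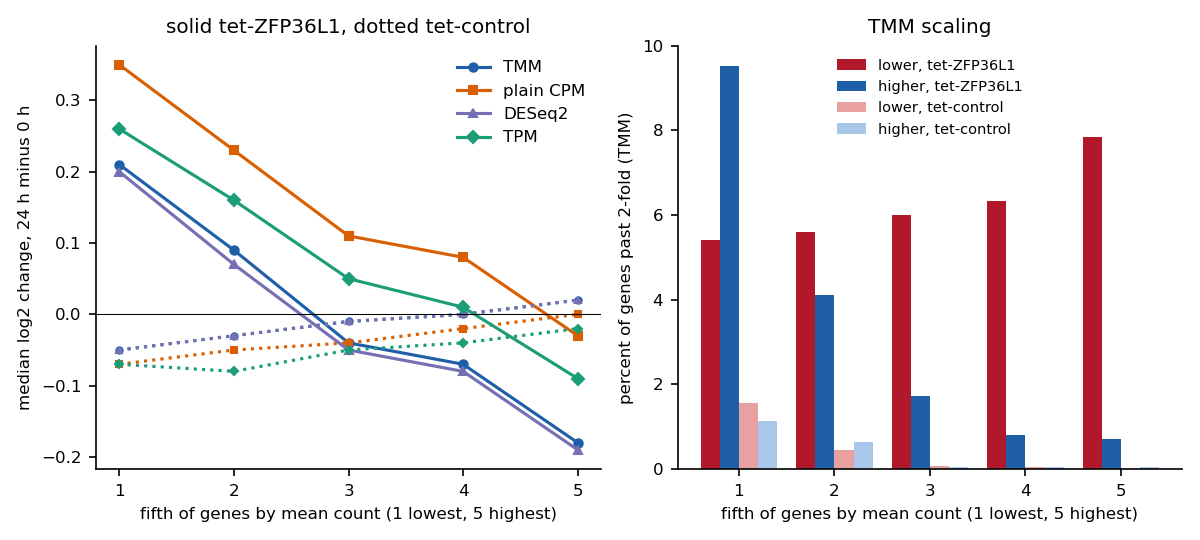
Left, median log2 change from 0 to 24 h in 5 equal bins of 11909 genes by mean count, for 4 scalings, tet-ZFP36L1 solid and tet-control dotted. Right, percent of genes in each bin at least 2-fold lower or higher with TMM, where the higher genes of tet-ZFP36L1 go from 9.53% to 0.71%.

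Base composition moved with the change as well. Over 5 equal bins of GC content of the main transcript, the median was -0.31, -0.13, -0.02, 0.08 and 0.16 from the most AT-rich to the most GC-rich genes, and within 0.03 of 0 in every bin of tet-control. At 6 h the same bins had -0.14, -0.01, 0.02, 0.03 and -0.04. The lower protein-coding genes had a median GC content of 44.6% and the higher ones 53.5%, with 48.3% over all. The part of GC content in the results for gene lists was not tested.

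The number of TATTTAT copies in the 3' UTR went with a lower level at 24 h. The median change was 0.06 in 7934 genes with 0 copies, -0.26 in 1919 with 1, -0.38 in 673 with 2 and -0.47 in 463 with 3 or more. In tet-control the medians were 0.00, -0.02, -0.06 and -0.08. Of genes with 3 or more copies, 20.1% were lower and 1.5% higher. Turned around, 400 of 705 lower genes (56.7%) had at least 1 copy, 51 of 351 higher genes (14.5%), and 3055 of all 10989 (27.8%). Genes with 2 or more copies lay below those with 0 within each of 5 bins of GC content. In the most AT-rich bin the medians were -0.48 and -0.20, and in the most GC-rich, where only 66 genes had 2 or more, -0.35 and 0.20. The same held within each bin of expression, with -0.21 against 0.28 in the lowest and -0.64 against -0.12 in the highest. Within 4 bins of 3' UTR length it was -0.38 against 0.10 in the longest and -0.67 against 0.02 in the shortest, the former of the last pair resting on 13 genes. The other lower genes, ADAM19 and NRP2 among them, had no copy in the 3' UTR searched.

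**Figure D5:**
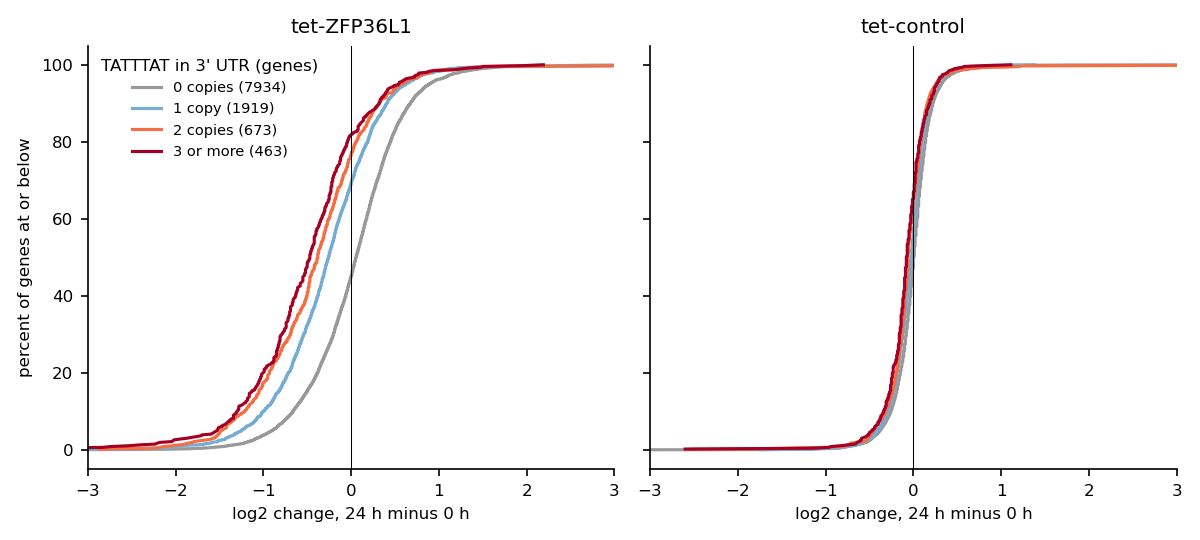
Cumulative percent of protein-coding genes by log2 change from 0 to 24 h, in classes of TATTTAT copies in the 3' UTR, for tet-ZFP36L1 (left) and tet-control (right). The curves shift left with more copies in tet-ZFP36L1, from a median of 0.06 to -0.47, and nearly overlap in tet-control.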

How the data were processed

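Total RNA of 6 J82 cultures was sequenced, per the labels' protocols. Tools listed in the submitters' processing notes are kallisto and DESeq2, and the build hg19, with no role or version. The deposited tables list 196354 transcripts with lengths, estimated counts and TPM. Deposited estimated counts can be fractional, and deposited TPM values are scaled for effective length and depth. Of these, 181857 transcripts matched GENCODE 29 (GRCh38) by identifier, 93.2% of them with the same length, and unmatched ones held 5.12% to 5.47% of counts. Gene positions and 3' UTRs are those of GENCODE 29 throughout.

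Sums of estimated counts over each gene's transcripts (52992 genes) were rounded. CPM used TMM factors (edgeR 4.0.16, R 4.3.3) computed on genes averaging 10 counts or more, and changes are differences of log2(CPM + 0.5), which understates changes of low genes. Intervals come from the delta method on counts, and cover counting error only, since the reads carry no molecular identifiers. With 1 library per group no test of edgeR or DESeq2 was run. The calling step was run on simulated Poisson counts with planted changes and the same scaling factors. Such counts hold no spread between cultures, so the run checks the code and not the calls in these libraries. TATTTAT was counted in the 3' UTR (at least 50 bases) of the coding transcript with the highest TPM. A gene sharing at least 50% of its 31-base words with other genes is uncertain: GAPDH, ALDOA, TUBB3, ITGB3, KRT8, KRT18, IRF9 and some mitochondrial genes.

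The members and lists were chosen with earlier results of these data known. Named genes were the ZFP36 family, the 12 largest changes each way and the 10 largest at 100 CPM or more (past 2-fold with TMM, plain CPM and TPM, and 1 from tet-control), the 5 largest of each list, all members of lists up to 15 genes, 3 non-coding genes each way and 5 genes with the largest gap between TMM and TPM. Other list members given, such as LIF, CXCL1, PLK1, CDK1, HSPA5, MX1 and those short of 2-fold, were chosen after their values were seen. Alternatives were plain CPM, DESeq2 1.42.0 size factors, TPM, pseudocounts of 0.1 and 5, other count minimums, a 1.5-fold threshold, protein-coding genes alone, the longest 3' UTR and the motif ATTTA. Using tet-control at 24 h as the reference was added after seeing the data. Some items are not reported here. Figures used matplotlib 3.10.9 under Python 3.11.15.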

Additional observations from a re-analysis of the deposited data

Results flagged for a closer look

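In 4 of the genes described or named by rule, the single libraries of the lines moved in opposite directions from 0 to 24 h, each by at least 2-fold; whether the lines differ was not tested. EXOC8, a subunit of the exocyst, had a change of -4.04 in tet-ZFP36L1, from 203 to 3 counts, and 1.11 in tet-control, from 157 to 343. At 6 h of tet-ZFP36L1 it had 440.1 estimated counts, above its 0 h value, so only the 24 h library of that line was low. The ratio of CPM for EXOC8 was 0.0138, with an exact 95% counting interval of 0.00281 to 0.0408. PLEKHG1, a guanine nucleotide exchange factor, had 3.23 against -1.28, from 0.54 to 9.24 CPM and from 5.76 to 2.08 CPM. SYNM, an intermediate filament protein, had 3.15 against -1.38, from 0.49 to 8.28 CPM and from 6.46 to 2.18 CPM. MAP3K14, a kinase of the alternative NF-kB pathway, had -1.42 against 2.10, from 2.80 to 0.73 CPM and from 2.68 to 13.2 CPM. All 4 are among genes with low counts. Over all genes, 10 of the 743 lower and 9 of the 402 higher ones had a 2-fold change the other way in tet-control.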

How the results depend on the processing

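No paired analysis was possible because each group has 1 library. With plain CPM 491 genes were lower in tet-ZFP36L1, and 384 lower with the difference between lines. A pseudocount of 5 gave 453 lower and 131 higher (366 and 110 by the difference), and 13 and 13 in tet-control. A 1.5-fold threshold gave 2031 and 1403 (1709 and 1124), and 229 and 190 in tet-control. In tet-control a minimum of 10 gave 118 lower and 126 higher, a minimum of 200 gave 14 and 18, and no filter 148 and 169. In tet-ZFP36L1 the higher genes numbered 687, 178 and 796 under those filters (527, 153 and 606 by the difference). Against tet-control at 24 h 1058 genes were higher, and 442 lower and 259 higher were past 2-fold from both references. List medians with plain CPM were -0.10 for replication, -0.53 for mitosis, 0.54 for antigen presentation, 0.85 for mitochondrial mRNAs, 0.05 for the nuclear respiratory chain, 0.33 for ribosomal proteins and 0.08 for ribosome biogenesis. By TPM they were -0.63 for mitosis, 0.55 for antigen presentation and 0.27 for ribosomal proteins. The lowest of 5 expression bins was at 0.35 with plain CPM, 0.26 by TPM and 0.12 with a pseudocount of 5, and the highest at -0.03 and -0.09. For 0, 1 and 2 or more TATTTAT copies the medians were 0.20, -0.11 and -0.28 with plain CPM, 0.13, -0.16 and -0.29 by TPM, 0.08, -0.20 and -0.38 with the longest 3' UTR, and 0.13, 0.00 and -0.21 with ATTTA. The cause of these shifts was not tested. Depth limits the genes under about 50 counts, which were not examined.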

Other observations

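Genes that do not code for protein also had 24 h changes past 2-fold in all scalings. The largest were in antisense RNA DLGAP1-AS2, with 22.0, 8.35 and 5.44 CPM at the 3 times in tet-ZFP36L1 and 33.1, 22.4 and 28.8 in tet-control (-1.92 and -0.20), and in antisense RNA AC017083.2 (-1.61 and 0.06). In the other direction were the intergenic RNAs AL365181.2 (1.47, with 0.02 in tet-control) and GAS6-DT (1.42 and 0.01) and the processed pseudogene CPSF1P1 (1.45 and -0.45). The share of their reads that could come from overlapping or parent genes was not tested.

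Some genes had unlike changes by CPM and by deposited TPM, which weighs each transcript by its length. CKAP2L, a spindle protein, was at -1.50 by CPM and -0.77 by TPM. DPY19L1 was at -0.63 and 0.33, and MDN1, a ribosome assembly ATPase, at 0.05 and 0.74.

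NTN1 (netrin 1) had 482 counts in tet-ZFP36L1 before doxycycline and 2 after 24 h, and 0 in tet-control at both times. The ratio of CPM was 0.00386, with an exact 95% counting interval of 0.000467 to 0.014. This gene was chosen after its values were seen.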
